A study of Mus musculus with 30 samples.

Results

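The proteasome genes of the mouse heart were followed through 10 ages from mid-gestation to the adult. They were all protein-coding genes in the count table whose symbol is Psma, Psmb, Psmc, Psmd or Psme followed by a digit, which gave 45 of 48820 genes. Of these, 44 encode proteasome subunits, activators or assembly chaperones. The remaining gene, Psmc3ip, shares the first letters only and encodes a partner of the meiotic recombinases. A further 4 genes with the same symbol start are pseudogenes and were left out.

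The proteasome degrades proteins tagged with ubiquitin. Its 20S core is a barrel of alpha rings (Psma genes) around beta rings (Psmb genes), and the 3 catalytic beta subunits Psmb5, Psmb6 and Psmb7 cut peptide bonds with an amino-terminal threonine. In the immunoproteasome, which interferon induces and which makes peptides suited to class I antigen presentation, these are replaced by Psmb8, Psmb9 and Psmb10, in that order. The 19S regulatory particle caps the core. Its ATPases (Psmc genes) unfold substrates, and among its other subunits (most Psmd genes) are those that bind and remove ubiquitin. The Psme genes encode other caps: PA28 alpha and beta (Psme1, Psme2), the nuclear PA28 gamma (Psme3) and PA200 (Psme4). In the heart the proteasome turns over contractile and signalling proteins.

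Poly(A)-selected RNA was sequenced from wild-type, untreated mouse hearts, with 3 libraries at each age: embryonic days E10.5, E12.5 and E14.5, then E16.5 and E18.5, postnatal day 1 (P1), and 1, 2, 4 and 8 weeks of age (1W, 2W, 4W, 8W). The labels name whole heart, and give neither sex nor strain nor the number of hearts in a library, so p-values measure the spread between these samples, which may be technical. The comparisons ask how the members change through gestation (E18.5 against E10.5), across birth (P1 against E18.5), in the first week (1W against P1) and from there to the adult (8W against 1W). Neighbouring steps share the libraries of an age. Levels are given as CPM, the counts of a gene scaled to a common library size, and a change is called when edgeR's adjusted p, taken over all 19280 genes tested, is below 0.05.

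Library totals ran from 23164941 to 50519457 counts. Cardiomyocyte markers were abundant at every age, from a summed 16200 CPM at the lowest to 228100 CPM at the highest library. The second library of E10.5 stood apart: its counts differed from those of the other E10.5 libraries by 172 and 201 times sampling noise (chi-square per degree of freedom), against 16 between those. Its summed cardiomyocyte markers were the lowest of the 3, and the changes from E10.5 to E18.5 named for members are given with and without it.

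The 3 pairs of standard and inducible catalytic subunits are close relatives, and the stretch that begins at the codon of the catalytic threonine shows where their coding bases differ. Bases were compared and amino acids were not, so the differences do not measure how far the catalytic sites differ. The first 60 coding bases from that codon are shown (GENCODE M21 transcripts, 5′ to 3′), with capitals at the bases that differ within a pair.
Psmb5: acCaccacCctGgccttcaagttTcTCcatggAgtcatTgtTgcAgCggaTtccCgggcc
Psmb8: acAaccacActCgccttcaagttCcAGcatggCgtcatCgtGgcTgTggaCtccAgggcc
Psmb6: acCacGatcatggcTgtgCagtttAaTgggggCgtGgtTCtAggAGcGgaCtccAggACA
Psmb9: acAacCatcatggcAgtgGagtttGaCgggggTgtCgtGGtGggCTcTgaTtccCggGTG
Psmb7: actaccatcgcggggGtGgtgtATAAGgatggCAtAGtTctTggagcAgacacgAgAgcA
Psmb10: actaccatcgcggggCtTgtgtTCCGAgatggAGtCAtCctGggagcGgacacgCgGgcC
Over these bases Psmb5 and Psmb8 differed at 13 positions, Psmb6 and Psmb9 at 19, and Psmb7 and Psmb10 at 17. Over the whole coding sequence the pairs were 68.0%, 65.9% and 63.4% identical. Psme2 and its relative Psme2b, in contrast, were 99.3% identical over 720 coding bases, so their reads may not be told apart.

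All 44 members that passed the filter on low counts changed across the 10 ages (largest adjusted p = 0.0047), where 93.6% of all genes tested did. The remaining member, Psmb11, the catalytic subunit of the thymus proteasome, did not pass: it had between 0 and 4 counts in any library and none in all 3 libraries of E14.5, P1, 2W, 4W and 8W. A count of 0 in the 3 libraries of 8W allows up to 0.041 CPM, for counting error only. Psma8, the alpha subunit of the testis proteasome, was low throughout, at 1.84, 1.81 and 1.34 CPM at E10.5 and 0.278, 0.529 and 0.399 CPM at 8W.

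**Figure D1:**
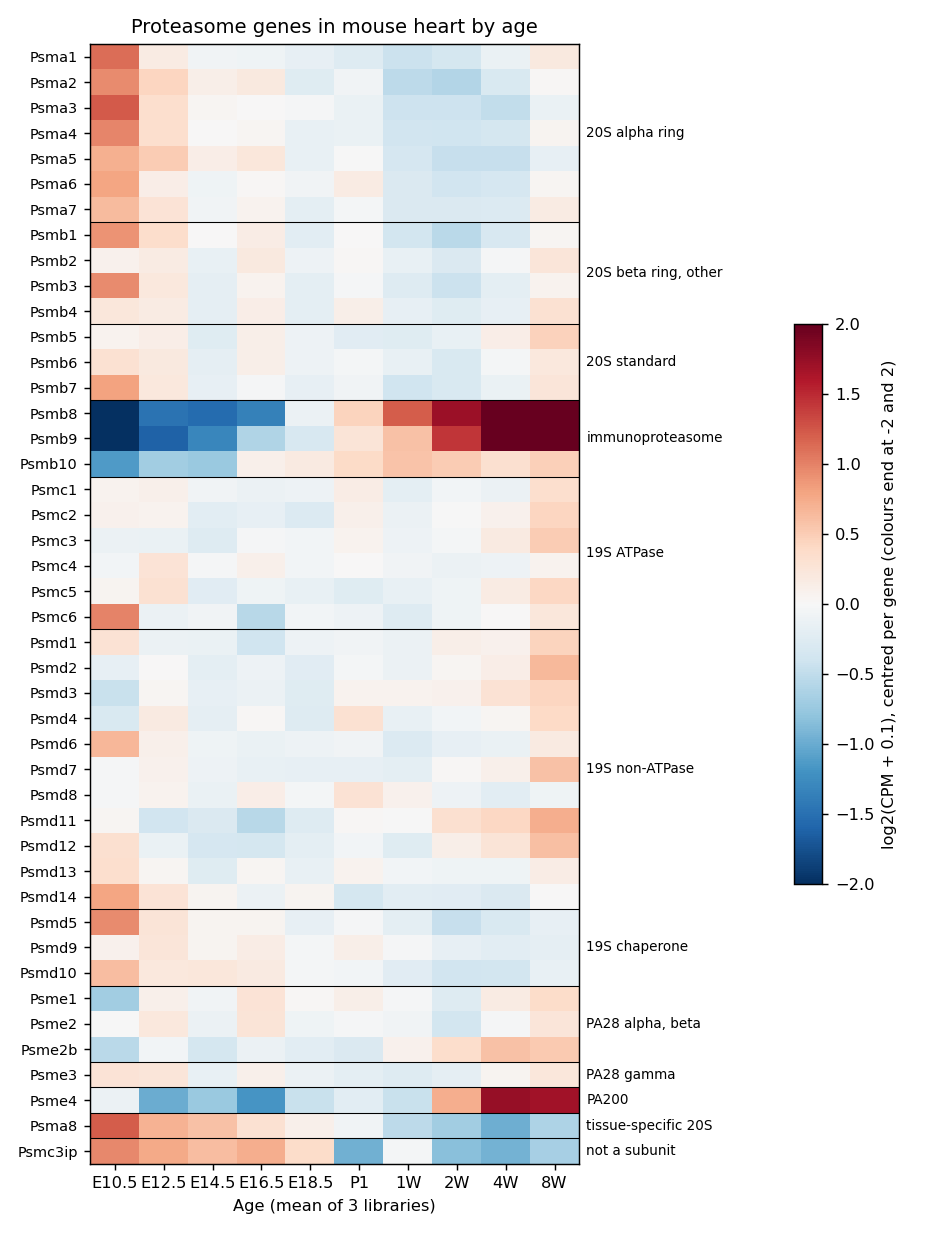
Mean log2(CPM + 0.1) of the 44 members tested at each age (columns, 3 libraries each), centred on each gene's mean over the 30 libraries and grouped by role. Red is above and blue below that mean, and colours end at -2 and 2. Most 20S rows are reddest at E10.5, whereas the Psmb8, Psmb9 and Psme4 rows are reddest at 4W and 8W.

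Between E10.5 and E18.5 the 20S core fell and the 3 inducible catalytic subunits rose. Of the 44 members, 28 were lower at E18.5 and 5 higher, where 30.4% of all genes tested were lower and 32.9% higher. Of the 14 standard 20S genes, 12 were lower and none higher, with a median log2 change of -0.95 against -0.001 over all genes. Of the 17 subunits of the 19S particle, 10 were lower and 1 higher, with a median of -0.20. Without the second E10.5 library, 11 of the 20S genes were lower (median -0.72) and 9 of the 19S genes (median -0.21).

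The largest falls were in the core. Psma1, an alpha-ring subunit, was at 150, 195 and 158 CPM in the E10.5 libraries and at 72.9, 64.5 and 67.9 CPM at E18.5. Each E10.5 library was above every library of E18.5, and the log2 change was -1.30 (SE 0.08, adjusted p = 5e-15), or -1.17 without the second E10.5 library. Psma3, of the same ring, went from 122, 180 and 108 CPM to 52.9, 57.7 and 57.1 CPM, again without overlap (log2 change -1.29, SE 0.11, adjusted p = 2.1e-11), or -1.04 without that library. Psmb3, a beta-ring subunit with no catalytic site, had its highest value of 264 CPM in the second E10.5 library, against 124 and 111 CPM in the others and 68.7 to 70.6 CPM at E18.5 (log2 change -1.26, SE 0.20, adjusted p = 7.2e-06). Without the second E10.5 library the change of Psmb3 was -0.75 (adjusted p = 3.3e-09).

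The standard catalytic subunits did not move alike in this step. Psmb7 fell from 137, 226 and 142 CPM to 88.5, 81.2 and 81.6 CPM (log2 change -1.01, SE 0.11, adjusted p = 3.8e-09), or by 0.73 on the log2 scale without the second E10.5 library. Psmb6 fell from 96.7, 170 and 112 CPM to 94.5, 92.6 and 90.0 CPM (log2 change -0.45, SE 0.12, adjusted p = 0.0016), a call that was lost without the second E10.5 library, where the change was -0.17. Psmb5, at 37.3, 58.5 and 40.2 CPM and then 41.5, 39.3 and 37.7 CPM, did not pass the test (log2 change -0.20, adjusted p = 0.13, or 0.03 without that library), and its libraries overlapped between the ages.

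Single 19S subunits parted from the rest, named here after their values were seen. Psmc6, an ATPase, was at 119, 164 and 106 CPM at E10.5 and at 61.5 to 62.7 CPM at E18.5 (log2 change -1.07, SE 0.11, adjusted p = 4.9e-10), or -0.86 without the second E10.5 library. Psmd3, a scaffold subunit of the lid, was the 1 subunit of the 19S particle called higher (log2 change 0.21, SE 0.08, adjusted p = 0.018, or 0.23 without the second E10.5 library), and lost that call without the first E10.5 library or the first or second E18.5 library. Of the 3 chaperones that assemble the 19S base, Psmd5 and Psmd10 fell and Psmd9 did not pass the test. Psmd5 fell from 58.6, 73.5 and 59.6 CPM to 31.3, 28.7 and 28.2 CPM (log2 change -1.12, adjusted p = 4.5e-13), or by 1.01 on the log2 scale without the second E10.5 library.

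Across birth, the members rose about as often as all genes and fell less often. At P1, 9 of the 44 members tested were higher than at E18.5 and 2 lower, where 19.8% of all genes were higher and 19% lower. Of the 9, 7 were subunits of the 19S particle and 1 was a 20S gene. Without the second E10.5 library, which enters this step only through the shared spread, 14 members were higher. Scaled by library size alone, which moved the median of all genes from -0.005 to -0.12, 3 were higher and 5 lower.

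Psmd4, a ubiquitin receptor of the 19S particle, rose most among the members called, from 75.5, 70.6 and 64.3 CPM to 104, 110 and 96.1 CPM (log2 change 0.56, SE 0.07, adjusted p = 2e-07). Psmc2, an ATPase, rose by 0.38 on the log2 scale (SE 0.07, adjusted p = 0.00013). Psmd8, a lid subunit, rose by 0.32 (SE 0.10, adjusted p = 0.012), a call lost without the third E18.5 or the second P1 library and under library size alone. Psmd14, the deubiquitinase of the lid, fell from 40.2, 39.2 and 38.4 CPM to 27.3, 26.8 and 35.5 CPM, without overlap (log2 change -0.39, SE 0.10, adjusted p = 0.0014).

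Psmc3ip, which is no subunit, showed the largest fall across birth, from 5.72, 5.30 and 4.43 CPM to 1.55, 2.12 and 2.41 CPM (log2 change -1.34, SE 0.19, adjusted p = 1.4e-06). It then rose in the first week to 3.37, 3.95 and 4.36 CPM and was at 2.41, 2.46 and 2.55 CPM at 8W. Of all genes tested, 19% fell across birth, 18.8% rose in the first week and 32.3% fell from 1W to 8W. The 8 proliferation genes examined moved with Psmc3ip: all 8 fell across birth, 6 rose in the first week and all 8 fell by 8W. Their summed level was 877 to 910 CPM at E18.5, 216 to 309 CPM at P1, 487 to 599 CPM at 1W and 61.0 to 67.3 CPM at 8W, and their part in the result was not tested.

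In the first week the core was lower again. At 1W, 15 members were lower than at P1 and 2 higher, where 17% of all genes tested were lower and 18.8% higher. Of the 14 standard 20S genes, 9 were lower (median log2 change -0.27, against -0.013 over all genes), and of the 17 subunits of the 19S particle, 5 were. Psma6 fell from 92.5, 98.9 and 101 CPM to 70.1, 73.6 and 68.2 CPM (log2 change -0.47, SE 0.10, adjusted p = 0.00053), and Psmd4 returned to 74.1, 78.4 and 73.7 CPM (log2 change -0.45, SE 0.07, adjusted p = 6.8e-06). Psma2, also of the alpha ring, fell by 0.46 on the log2 scale (SE 0.14, adjusted p = 0.015), and lost that call without the second or the third P1 library or the third 1W library. The count of lower members rested on single libraries: it was 8 without the second and 5 without the third P1 library, 8 without the first and 6 without the third 1W library, and 23 under library size alone. The 2 higher members were Psmb8 and Psmc3ip.

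From 1W to 8W most of the proteasome rose. At 8W, 32 members were higher than at 1W and 1 (Psmc3ip) lower, where 30.9% of all genes tested were higher and 32.3% lower. Of the 14 standard 20S genes 12 rose, with a median log2 change of 0.41, and of the 17 subunits of the 19S particle 14 rose, with a median of 0.54, against -0.06 over all genes. These directions depend on the scaling: under library size alone, which put the median of all genes at -0.73, 3 members were higher (Psme4, Psmb9 and Psmd12) and 23 lower, with medians of -0.25 for the 20S and -0.12 for the 19S genes. Both groups lay above the median of all genes under either scaling. A change of scaling shifts all genes nearly alike, so this could not have come out otherwise and does not settle the direction.

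Psmb5 rose from 34.4, 40.3 and 32.5 CPM at 1W to 56.5, 61.4 and 57.0 CPM at 8W (log2 change 0.71, SE 0.12, adjusted p = 4.2e-06). In CPM its 8W libraries were above those of every other age except the second E10.5 library. That ranking depends on the scaling: Psmb5 had 1155, 1968 and 1651 counts at E10.5 and 1222, 1623 and 1430 at 8W. Divided by library totals alone, each 8W library was below each E10.5 library. Psmb7 rose by 0.63 (SE 0.11, adjusted p = 1.5e-05) and Psmb6 by 0.36 (SE 0.12, adjusted p = 0.0096). Under library size alone Psmb5 kept its direction and lost the call, and Psmb6 and Psmb7 turned to -0.30 and -0.03. Psmd12, a lid subunit named after its values were seen, was at 53.0, 59.1 and 53.2 CPM at 1W and at 102, 96.5 and 99.3 CPM at 8W (log2 change 0.85, SE 0.07, adjusted p = 1.2e-12). None of the 3 chaperones of the 19S base passed the test in this step, which also depends on the scaling. Psmd5, for example, had 997, 1280 and 1186 counts at 1W and 666, 806 and 676 at 8W. Divided by library totals alone, all 3 chaperones were lower in each 8W library than in any 1W library.

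The balance of core to regulatory particle shifted with age, a measure chosen after its values were seen and given as a description. Of all counts in the 31 genes of the 20S core and the 19S particle, the 20S genes took 48.4%, 55.8% and 47.0% in the E10.5 libraries and 39.4%, 39.1% and 39.7% in those of E18.5. They took 33.1%, 33.7% and 34.1% at 2W and 35.3%, 34.3% and 35.4% in the adult hearts of 8W. A share within a library does not depend on scaling between libraries. Every library of E10.5 was above every library of any later age, and those of 1W, 2W, 4W and 8W were below all earlier ones. By mean CPM, which unlike the share depends on scaling between libraries, 11 of the 14 standard 20S genes were highest at E10.5. Of the 17 subunits of the 19S particle, 11 were highest at 8W on that scale. These ages were not recounted under library size alone. For Psmb6 the highest mean lay at E10.5 only through the second library of that age. Over the 30 libraries the median Pearson r was 0.85 between pairs of 20S genes, 0.44 between pairs of 19S genes and 0.34 across the groups. These libraries share ages and depth, so the values are descriptions.

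**Figure D2:**
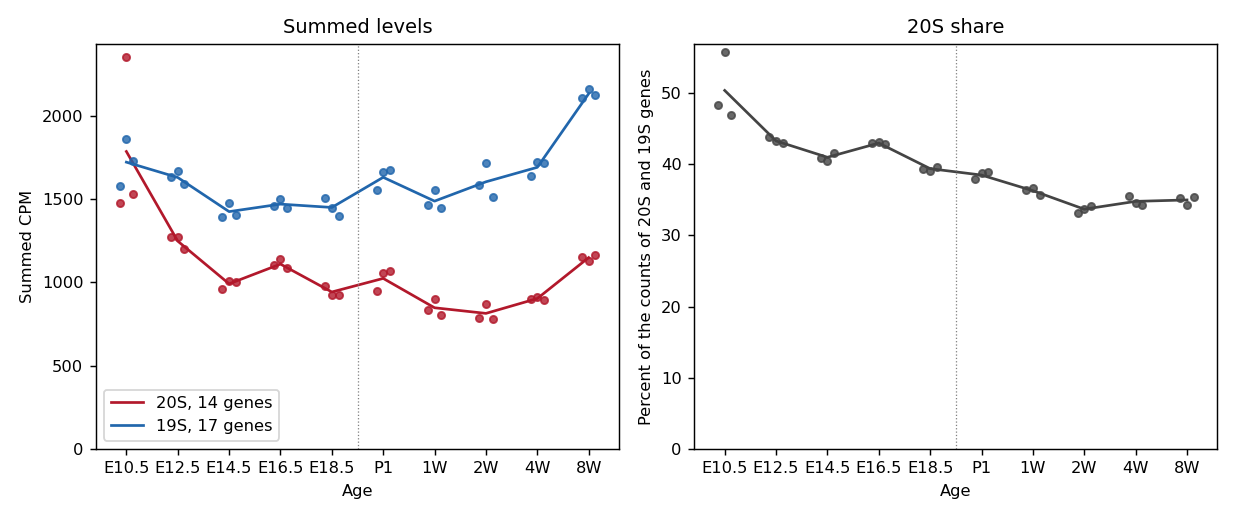
Left, summed CPM of the 14 standard 20S genes (red) and the 17 subunits of the 19S particle (blue) by age; right, the percent of their counts in the 20S genes. Points are libraries and lines join the means of 3. The 20S share falls from 47.0 to 55.8% at E10.5 to 34.3 to 35.4% at 8W, and the second E10.5 library is the highest point in both panels for the 20S genes.

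All 3 inducible subunits were lowest at E10.5 and rose in gestation, and Psmb8 and Psmb9 rose again between 1W and 8W. Psmb8 (chromosome 17, 34197721 to 34201454, GRCm38) and Psmb9 (chromosome 17, 34181987 to 34187764) lie near each other, and Psmb9 overlaps Tap1, the peptide transporter gene, on the other strand. Psmb10 lies on chromosome 8, 105935735 to 105938444. No source used here says whether the counting used the strand, so reads of Psmb9 and Tap1, of Psmb8 and Gm20496, and of Psmb10 and Gm16156 may not be told apart where these overlap.

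Psmb8 was at 0.0646, 0.268 and 0.0243 CPM in the E10.5 libraries, 2.37, 1.74 and 1.52 CPM at E18.5 and 2.57, 3.96 and 2.12 CPM at P1. It reached 5.02, 4.60 and 4.86 CPM at 1W, 13.2, 10.1 and 8.95 CPM at 4W and 11.7, 8.39 and 9.81 CPM at 8W. The libraries of E10.5, those of E18.5, those of 1W and those of 8W did not overlap one another, while E18.5 overlapped P1, and 4W overlapped 8W. The 12 counts at E10.5 and 198 at E18.5 gave a ratio of 16.2 (exact 95% interval 9.06 to 31.9, counting error only), and the fitted change was called (adjusted p = 3.5e-09). Of the 12 counts, 9 were in the second E10.5 library. Without it the ratio, from 198 and 3 counts, was 44.1 (exact 95% interval 14.9 to 216), and the change was still called (adjusted p = 6.4e-10). Psmb8 did not pass the test across birth (log2 change 0.63, adjusted p = 0.082). It rose in the first week (0.74, SE 0.27, adjusted p = 0.028), a call lost without the first or the third P1 library, without the first or the third 1W library and under library size alone. From 1W to 8W it rose by 1.04 (SE 0.25, adjusted p = 0.00066), and by 0.38 with no call under library size alone.

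Psmb9 was lower still. It had 3 counts at E10.5, all in the second library (0.0893 CPM), then 0.767, 0.665 and 0.310 CPM at E18.5, 0.828, 1.46 and 1.14 CPM at 1W, 4.77, 4.01 and 2.67 CPM at 4W and 3.61, 2.49 and 3.55 CPM at 8W. The ratio of E18.5 to E10.5, from 62 and 3 counts, was 20.3 (exact 95% interval 6.62 to 101), and the fitted change was called (adjusted p = 2.9e-06). Without the second E10.5 library no count remained at E10.5, and E18.5 was at least 13.8-fold higher, taking 3 counts over the other E10.5 libraries as the floor (adjusted p = 8.8e-07). Psmb9 did not pass the test across birth (log2 change 0.61, adjusted p = 0.25) or in the first week (0.37, adjusted p = 0.48). It rose from 1W to 8W by 1.48 (SE 0.36, adjusted p = 0.00058), and by 0.83 under library size alone (adjusted p = 0.042).

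Psmb10 was the most abundant of the 3 and, with the scaling used for CPM, levelled off first. It was at 7.78, 9.82 and 6.18 CPM at E10.5 and 20.4, 19.5 and 18.5 CPM at E18.5, without overlap (log2 change 1.30, SE 0.17, adjusted p = 7.8e-08, or 1.49 without the second E10.5 library). It was at 24.5, 26.1 and 25.8 CPM at 1W and 24.6, 21.3 and 26.2 CPM at 8W. Psmb10 did not pass the test across birth (log2 change 0.20, adjusted p = 0.34), in the first week (0.18, adjusted p = 0.39) or from 1W to 8W (-0.08, adjusted p = 0.66). The last result depends on the scaling. It had 888, 1036 and 1154 counts at 1W and 532, 564 and 656 at 8W. Divided by library totals alone, each 8W library was below each 1W library. At 2W its libraries ranged from 16.7 to 34.8 CPM.

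**Figure D3:**
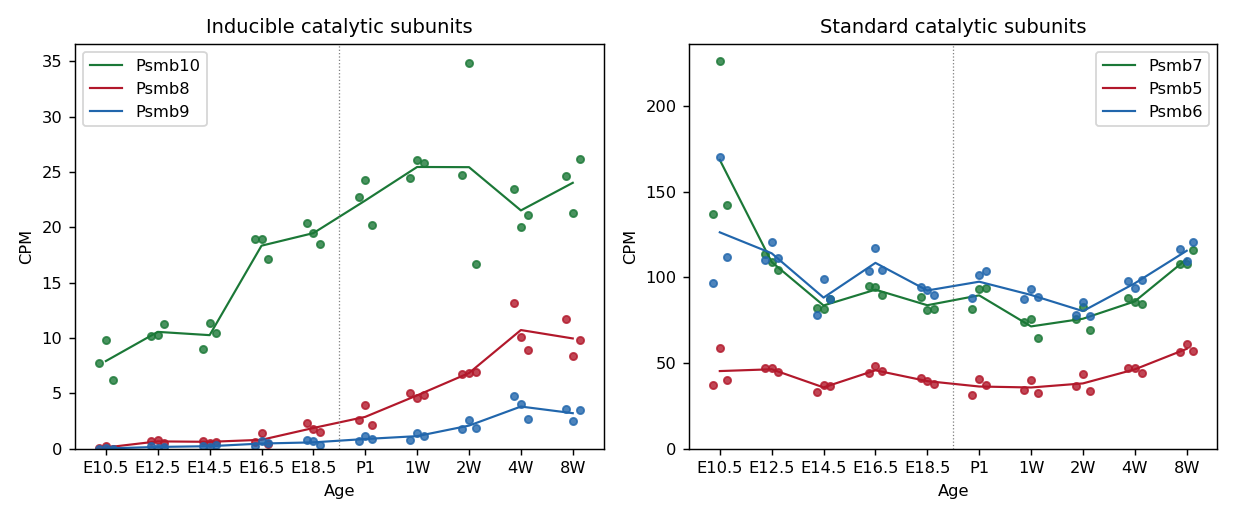
CPM of the inducible catalytic subunits (left) and of the standard subunits they replace (right) by age, with matching colours for each pair. Points are libraries and lines join the means of 3; the dotted line marks birth. Psmb10 is the highest inducible subunit at every age, while the means of Psmb6 and Psmb7 are highest at E10.5 and that of Psmb5 at 8W (58.3 CPM). For Psmb6 this rests on the second E10.5 library (170 CPM). The other E10.5 libraries, at 96.7 and 112 CPM, are below its 8W mean of 115.5 CPM.

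Within each pair the inducible share rose, and it peaked after birth. The Psmb8 share of Psmb5 and Psmb8 counts was 0.230% ± 0.20 (SD, n = 3) at E10.5 and had risen to 4.51% ± 0.79 by E18.5. It reached 12.0% ± 1.5 at 1W and a peak of 18.7% ± 2.7 at 4W, and stood at 14.6% ± 2.6 in the adult (8W). The Psmb9 share of Psmb6 and Psmb9 was 0.0175% ± 0.030 at E10.5 and 0.621% ± 0.24 by E18.5, then 1.25% ± 0.30 at 1W, its highest value of 3.80% ± 1.0 at 4W, and 2.70% ± 0.41 in the adult. The Psmb10 share of Psmb7 and Psmb10 was 4.57% ± 0.70 at E10.5 and 18.9% ± 0.45 by E18.5, and after its highest value of 26.4% ± 1.9 at 1W it was 17.8% ± 1.2 in the adult. The mean Psmb10 share was highest at 1W, where its libraries overlapped those of 2W (19.5% to 29.6%). Its 3 libraries at 1W (24.9%, 25.7% and 28.5%) were above those at 8W (18.6%, 16.5% and 18.4%). The 4W and 8W libraries of Psmb8 and of Psmb9 overlapped.

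All 3 inducible genes together took 2.36% ± 0.40 of the counts of the 6 catalytic subunits at E10.5 and 9.23% ± 0.32 by E18.5. Their mean share was highest at 2W, at 14.9% ± 2.4, and was 11.5% ± 1.1 in the adult. The 2W libraries (12.4% to 17.3%) overlapped those of 1W (13.3% to 14.6%) and 4W (12.6% to 15.1%), so the age of the peak is not resolved. Each of these shares differed between ages in a permutation test of the F ratio (100000 resamples, adjusted p = 1e-05 over 6 shares, the smallest the resamples can give). Per kilobase of transcript, which allows levels of different genes to be compared, Psmb10 was at 18.3 ± 1.9 CPM per kilobase at 8W, Psmb8 at 6.12 ± 1.0 and Psmb9 at 2.38 ± 0.46. The standard partners were at 95.5 ± 4.0 (Psmb7), 64.9 ± 2.9 (Psmb5) and 145 ± 7.1 (Psmb6). On this scale each inducible subunit stayed below its standard partner at 8W.

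**Figure D4:**
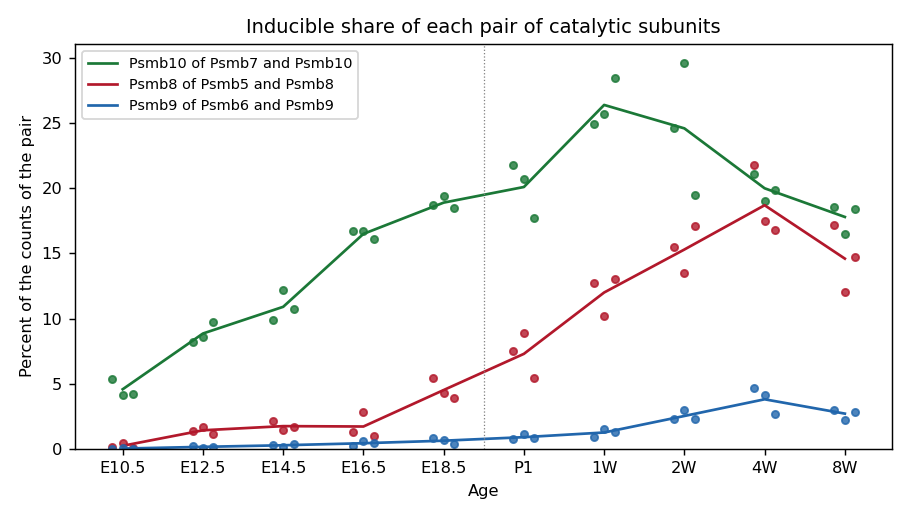
Percent of the counts of each pair of catalytic subunits that belong to the inducible member, by age. Points are libraries, lines join the means of 3, and the dotted line marks birth. The Psmb10 share is highest at 1W (26.4%) and the Psmb8 and Psmb9 shares at 4W (18.7% and 3.80%).

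Most genes of class I antigen processing and of interferon signalling rose in gestation and from 1W to 8W. Of 12 antigen processing genes, 9 rose and 2 fell from E10.5 to E18.5 (median log2 change 1.97), where 32.9% of all genes tested rose and 30.4% fell. Across birth 6 rose and 3 fell, or 3 and 3 under library size alone, and in the first week 3 rose and none fell, or 1 and none. After the first week, up to 8W, 10 rose and none fell (median 1.07), or 7 and 1 under library size alone, where 30.9% of all genes rose and 32.3% fell. The summed level of these 12 genes did not rise in gestation: it was 1380 to 2121 CPM at E10.5 and 1200 to 1278 CPM at E18.5. It was 1022 to 1067 CPM at 1W and 1881 to 2001 CPM at 8W. Calr, of the same list, fell by 1.00 on the log2 scale across birth (SE 0.14, adjusted p = 9.6e-07). Tap2, a peptide transporter subunit, rose by 4.64 on the log2 scale in gestation (SE 0.26, adjusted p = 1.5e-16, or 4.37 without the second E10.5 library), and H2-K1, a class I heavy chain, by 2.08 from 1W to 8W (SE 0.25, adjusted p = 1.8e-07). Nlrc5, the transactivator of class I genes, had a mean of 0.0108 CPM at E10.5, 0.723 CPM at 1W and 4.93 CPM at 8W. Of 12 interferon signalling genes, 10 rose and none fell in gestation, 4 rose and 5 fell across birth (19.8% and 19% of all genes), and 6 rose and 3 fell in the first week (18.8% and 17%). From 1W to 8W 9 rose and 2 fell, or 4 and 4 under library size alone. Irf8, a myeloid and interferon regulatory factor, rose by 3.44 in gestation (SE 0.16, adjusted p = 1.5e-18), and Irf7, by 1.65 from 1W to 8W (SE 0.20, adjusted p = 1.9e-08). Before that, Irf7 had fallen by 0.97 in the first week (SE 0.20, adjusted p = 0.00032).

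Markers of cell types are given beside this. Of all genes tested, 32.9% rose in gestation, 19.8% across birth and 30.9% from 1W to 8W. In the first week 18.8% rose and 17% fell. These are not shares under library size alone. Of 14 leukocyte and macrophage markers, 12 rose in gestation and 9 across birth, 2 rose and 2 fell in the first week, and 13 rose from 1W to 8W, or 6 under library size alone. Their summed level was 26.3 to 33.8 CPM at E10.5, 133 to 160 CPM by E18.5, then 199 to 215 CPM at 1W and 563 to 613 CPM in the adult, and none of the 14 was at 0 in all 3 libraries of an age. The 7 lymphocyte markers summed to at most 3.33 CPM at any age, and Cd3e, Cd3d and Ms4a1 had no counts at the 4 ages before E18.5. The 9 endothelial markers summed to 786 to 1007 CPM at E10.5 and 1189 to 1319 CPM by E18.5, then 1856 to 1917 CPM at 1W and 1362 to 1408 CPM in the adult. The 7 fibroblast markers summed to 377 to 566 CPM at E10.5 and 4304 to 4464 CPM by E18.5, then 5746 to 5885 CPM at 1W and 1736 to 1841 CPM in the adult. The 8 cardiomyocyte markers all rose in gestation and again from 1W to 8W, where 4 rose under library size alone. They summed to 16200 to 36040 CPM at E10.5 and 73550 to 81630 CPM by E18.5, then 125000 to 129500 CPM at 1W and 202800 to 223100 CPM in the adult. Leukocyte and cardiomyocyte markers thus moved with Psmb8 and Psmb9 in both steps, and the summed endothelial and fibroblast markers moved with them in gestation but were lower at 8W than at 1W. The part of these cells in the rise of the inducible subunits was not tested. In whole hearts more cells of a type and more RNA per cell cannot be told apart.

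The 250 bases before the RefSeq start (GRCm38.p6) of Psmb8 and Psmb9 are shown because interferon acts on both genes, with capitals at a match to a gamma-activated site, TTCNNNGAA, searched on both strands. The window of Psmb8 is chr17:34197945-34198194 on the plus strand and that of Psmb9 chr17:34187331-34187580 on the minus strand. Both windows lie inside their genes as GENCODE draws them, so neither may be the promoter in use in these hearts. None of the 7 GENCODE transcripts of Psmb8 starts within 100 bases of its RefSeq start. For Psmb9, 3 of 7 transcripts start that close.
Psmb8: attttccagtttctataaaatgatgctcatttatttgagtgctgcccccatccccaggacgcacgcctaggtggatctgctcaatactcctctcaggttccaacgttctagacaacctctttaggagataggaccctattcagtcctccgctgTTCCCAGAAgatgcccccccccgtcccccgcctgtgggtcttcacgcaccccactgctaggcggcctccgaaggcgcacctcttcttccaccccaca
Psmb9: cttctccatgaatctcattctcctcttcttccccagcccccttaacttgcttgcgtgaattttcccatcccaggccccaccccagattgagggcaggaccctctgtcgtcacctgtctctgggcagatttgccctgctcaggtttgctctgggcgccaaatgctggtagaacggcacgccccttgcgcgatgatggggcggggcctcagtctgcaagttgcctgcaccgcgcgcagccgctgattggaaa
The Psmb8 window held 1 match and the Psmb9 window none. Of the 38 members with such a window in the table, Psmb8 alone held this motif, against 7% of all 32851 windows. The core of the interferon-stimulated response element, searched in the same way, was in 3 members (Psmb3, Psmd4 and Psmd9) and in 3% of all windows. The antioxidant response element core TGACNNNGC, through which Nfe2l1 drives proteasome genes, was in 5 members (Psmb5, Psmb6, Psmc6, Psmd12 and Psmd9) and in 10.2% of all windows.

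Among the activators, Psme4 rose most. Psme4 encodes PA200, a large cap that opens the core without ATP or ubiquitin, and lies on chromosome 11, 30771726 to 30880361. It was at 222, 205 and 198 CPM at E10.5, 93.1, 102 and 104 CPM at E16.5, 165, 158 and 176 CPM at E18.5 and 178, 152 and 167 CPM at 1W. It then reached 383, 376 and 363 CPM at 2W, 721, 789 and 753 CPM at 4W and 682, 756 and 734 CPM at 8W. Each library of 2W was above all earlier ones, each of 4W and 8W was above all of 2W, and 4W and 8W overlapped. From 1W to 8W the log2 change was 2.13 (SE 0.08, adjusted p = 4.4e-20), and 1.46 under library size alone (adjusted p = 1.5e-15). It was lower at E18.5 than at E10.5 (log2 change -0.32, SE 0.08, adjusted p = 0.00072, or -0.33 without the second E10.5 library). The smaller changes across birth (0.23, adjusted p = 0.020) and in the first week (-0.24, adjusted p = 0.018) were lost without single libraries: the first or second E18.5 library for birth, the second or the third 1W library for the first week, and the first or the third P1 library for both. That across birth was also lost under library size alone.

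Psme1 went the other way in gestation, from 39.6, 61.7 and 46.9 CPM at E10.5 to 84.3, 77.4 and 78.7 CPM at E18.5 (log2 change 0.70, SE 0.10, adjusted p = 1e-07, or 0.89 without the second E10.5 library). Psme1 overlaps Emc9 on the other strand, so their reads may not be told apart there. The partner of Psme1 in PA28, Psme2, at 23.5, 35.8 and 27.4 CPM and then 29.9, 26.9 and 24.8 CPM, did not pass the test (log2 change -0.09, adjusted p = 0.50, or 0.09 without that library), and its libraries overlapped. From 1W to 8W Psme1 rose by 0.38 (SE 0.09, adjusted p = 0.00065), Psme2 by 0.31 (SE 0.11, adjusted p = 0.018) and Psme3 by 0.49 (SE 0.08, adjusted p = 1.8e-06), but under library size alone these were -0.28, -0.36 and -0.18. Psme2b stayed between 0.614 and 2.09 CPM in all 30 libraries and did not pass the test in that step (log2 change 0.46, adjusted p = 0.15); since its coding sequence is nearly that of Psme2, its counts are uncertain.

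The Psme4 share of the counts of Psme1, Psme2, Psme3 and Psme4 was 57.8% ± 4.9 (SD, n = 3) at E10.5 and as low as 33.9% ± 1.2 at E16.5. After birth it went from 51.4% ± 3.0 at 1W to 72.4% ± 1.5 at 2W and 80.7% ± 0.77 at 4W, and was 77.8% ± 1.1 in the adult. It differed between ages, as did the joint share of Psme1 and Psme2, which fell from 32.6% ± 1.8 at 1W to 12.4% ± 1.1 at 4W and stood at 14.5% ± 0.62 at 8W (permutation tests, adjusted p = 1e-05, the smallest the resamples can give). Psme4 is a long transcript and collects more counts per molecule. Per kilobase it took 17.9% ± 1.7 of the 4 genes at 1W and 46.8% ± 1.8 at 4W, and it ranked 29th of the 45 members at 1W and 2nd at 4W, behind Psmb6. Against the proteasome itself, Psme4 had 71.2 ± 8.2 counts per 1000 counts of 20S and 19S genes at 1W, 291 ± 8.1 at 4W and 221 ± 10 at 8W.

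**Figure D5:**
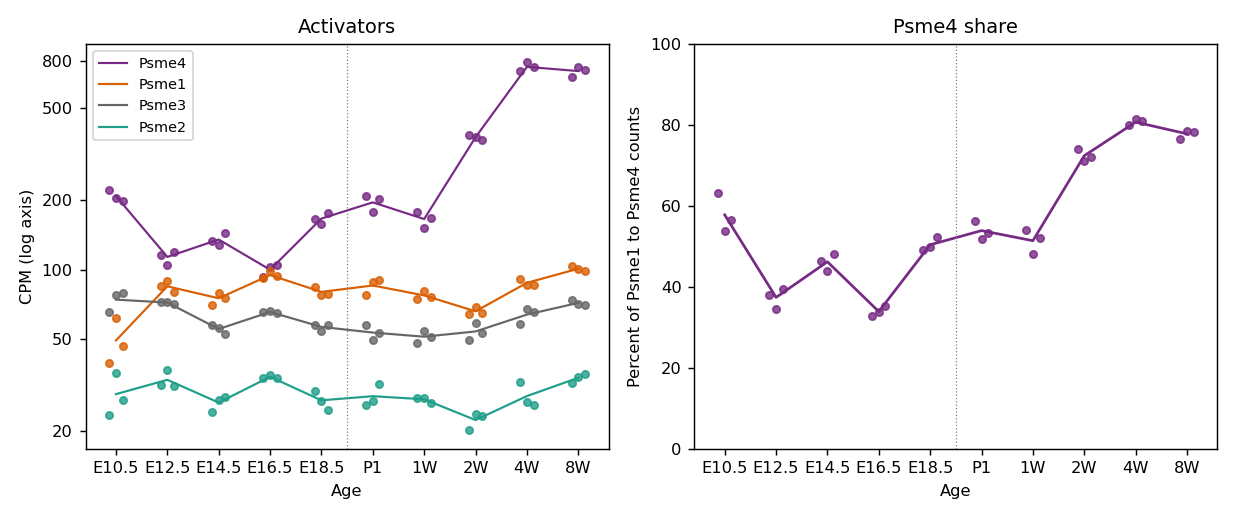
Left, CPM of Psme4, Psme1, Psme3 and Psme2 by age on a log axis; right, the percent of the counts of these 4 genes in Psme4. Points are libraries and lines join the means of 3. Psme4 rises from 152 to 178 CPM at 1W to 721 to 789 CPM at 4W, and its share from 51.4% to 80.7%.

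Genes that build and serve the proteasome were also followed. Of all genes tested, 32.9% rose and 30.4% fell in gestation, and 30.9% rose and 32.3% fell from 1W to 8W. These shares stand beside the lists that follow, except where library size alone is named. Of the 6 assembly chaperones and inhibitor, 5 fell in gestation (3 without the second E10.5 library), and 3 rose from 1W to 8W, where none rose and 2 fell under library size alone. Pomp, the maturation factor of the core, fell by 1.01 on the log2 scale in gestation (SE 0.11, adjusted p = 5.6e-10). It rose from 1W to 8W by 0.64 (SE 0.11, adjusted p = 4.4e-06), and changed by -0.03 under library size alone. Of 5 further regulatory particle genes, 4 fell in gestation and all 5 rose from 1W to 8W, where none rose and 2 fell under library size alone. Txnl1, a thioredoxin-like protein of the particle, changed by -1.07 in the former step (SE 0.10, adjusted p = 1.5e-11) and by 0.69 in the latter (SE 0.10, adjusted p = 1.8e-07).

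Of 7 genes of proteasome gene transcription, 6 rose in gestation and all 7 from 1W to 8W, where 4 rose and 2 fell under library size alone. Nfe2l1, the transcription factor that restores proteasome genes when the proteasome is impaired, went from 71.8, 53.7 and 90.6 CPM at E10.5 to 188, 192 and 188 CPM at E18.5 (log2 change 1.39, SE 0.10, adjusted p = 7.4e-14) and to 722, 770 and 727 CPM at 8W. It rose in gestation, the step in which the 20S genes fell, and again from 1W to 8W (1.19, SE 0.10, adjusted p = 3.3e-12). Of 8 muscle ubiquitin ligases, 5 rose and 2 fell in gestation, and 6 rose and 1 fell from 1W to 8W, or 3 and 4 under library size alone. Trim63, which tags contractile proteins, rose by 1.58 in gestation (SE 0.08, adjusted p = 2.5e-17), and Fbxo32, which tags muscle proteins during atrophy, by 2.05 from 1W to 8W (SE 0.12, adjusted p = 8e-16).

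Of the 7 ubiquitin shuttle factors, 3 rose and 2 fell in gestation. From 1W to 8W 6 rose and none fell, or 2 and 3 under library size alone, led by Sqstm1, an autophagy receptor (1.40, SE 0.11, adjusted p = 9.9e-13). All 6 genes of the VCP segregase, which extracts ubiquitylated proteins, rose in the same step, with a median of 0.54, but 1 rose and 2 fell under library size alone. In gestation none of these 6 rose and 1 fell. Of 6 genes of ubiquitin and its activating enzymes, 2 rose and 3 fell in gestation. From 1W to 8W 2 of them rose and none fell.

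The genes whose log2 CPM over the 30 libraries was most like the mean of Psmb8, Psmb9 and Psmb10, out of 10740 protein-coding genes that averaged 5 CPM or more, were Coq8a (Pearson r = 0.979), Alas1 (0.979), Wdfy4 (0.978), Mb (0.977) and Cyp4b1 (0.977). For the mean of the 20S and 19S genes they were Cops6 (0.921), Cnbp (0.918), Mrpl11 (0.918), Mrpl22 (0.911) and Skp1a (0.909). The 30 points share 10 ages and their libraries, so the values are descriptions.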

How the data were processed

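The authors deposited 1 table of estimated counts per gene for all 30 libraries. Values are unscaled, and 6.94% were not whole (tolerance 1e-06), so they were rounded. Per the submitters' processing notes, fastp 0.18.0 and STAR 2.5.3a were used with GRCm38 (mm10). No source used here gives their roles, the counting tool, its annotation or whether strand was used. Gene symbols came from GENCODE M21, matched on the identifier (48144 of 48820 genes); 30 of 45 members had the same identifier version. Genes without a symbol held 0.225% of counts.

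edgeR 4.0.16 in R 4.3.3 (filterByExpr, TMM scaling, robust quasi-likelihood F tests, 1 mean per age, 20 residual degrees of freedom) was fitted to all 30 libraries, and p-values were adjusted over 19280 genes (Benjamini-Hochberg). The fit was tested on simulated data. Changes are log2 of the later over the earlier age. Shares were tested by permuting libraries over ages. Per-kilobase values use the mRNA length of the transcript with the longest coding sequence. Intervals and limits cover counting error only, since there are no molecular identifiers.

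Named members were the catalytic subunits, Psme1 to Psme4, the tissue-specific subunits and Psmc3ip, the 3 largest called rises and falls in each step, members that failed the filter, and the 2 most changed called genes of each list, of which a selection is printed. The members and lists were chosen with earlier results of these data known. Alternatives were other scalings and filters, DESeq2 1.42.0, a replicate block, the 6 samples of a step alone, and each library left out.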

Additional observations from a re-analysis of the deposited data

How the results depend on the processing

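Of 548 recomputed counts and shares, 531 stayed within 1.5 times the count or kept direction and call, and 17 moved; of 2613 recomputed changes of single members, 17 reversed, 95 lost their call and 10 gained one. Of the 95, 73 were lost as a library was left out and 6 under library size alone. Scaling by library size alone gave 3 higher and 5 lower members across birth, 1 higher and 23 lower in the first week, and 3 higher and 23 lower from 1W to 8W. In that last step it gave log2 changes of -0.04 for Psma1, -0.12 for Psma2, -0.38 for Psma3, -0.33 for Psma6, -0.30 for Psmb6, -0.03 for Psmb7, -0.12 for Psmc2, -0.17 for Psmc6, -0.44 for Psmd14, -0.31 for Psmd3, -0.12 for Psmd4, -0.28 for Psme1, -0.36 for Psme2, -0.20 for Psme2b and -0.18 for Psme3. From 1W to 8W, 3 members were lower with upper quartile factors and 2 with the 6 samples of the step. In gestation, Psmb5 ranged from -0.32 to 0.03 and Psme2 from -0.21 to 0.09 as single libraries were left out, with the positive values without the second E10.5 library.

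With each library left out in turn, the members higher and lower ranged from 4 to 5 and 26 to 32 in gestation, 6 to 14 and 2 to 2 across birth, 1 to 2 and 5 to 17 in the first week, and 29 to 35 and 1 to 2 from 1W to 8W. Same-numbered libraries did not deviate together (correlations from -0.102 to 0.114), so the replicate block rests on a number alone; with the block, 33 members were higher from 1W to 8W and 14 lower in the first week. Low counts limit Psmb8 and Psmb9 at E10.5.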
